A study of Mus musculus with 8 samples.

Results

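Axon guidance genes encode secreted or membrane-bound cues and the receptors that read them, first described in growing axons and later found on endothelial and blood cells. The genes were taken by symbol from 4 groups of cues and receptors: Slit ligands with Robo receptors, semaphorins with plexins and neuropilins, ephrins with Eph receptors, and netrins and repulsive guidance molecules (Rgm) with Dcc, Neo1 and the Unc5 receptors. Of the 24011 named genes measured, 72 met this rule: 34 receptors, 37 ligands and Plxna4os1, an antisense RNA that met it by name only. A further gene that meets the rule was not analysed here. Their levels were compared between 2 cell populations sorted from the bone marrow of adult C57Bl6 mice. Lin+ cells bear antigens of maturing blood lineages and were measured on 4 arrays. HSC-enriched cells, a small fraction rich in haematopoietic stem cells (HSCs), were measured on another 4. The sample labels give the HSC-enriched gate as LSK (lineage-negative, Sca-1-positive, Kit-positive), CD105+ and CD48-negative, whereas the design text names CD150 in place of CD105. No treatment or genotype is given for either population. Neither the number of mice behind a sample nor any pooling is stated, so a p-value rests on the spread over these arrays alone, which can be technical.

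Slits are secreted ligands of Robo receptors. Class 3 semaphorins are secreted and signal through neuropilins paired with plexins, whereas the other vertebrate classes are membrane-anchored and mostly bind plexins directly. Ephrins are membrane-bound ligands of the Eph receptor tyrosine kinases, with A ephrins held by a lipid anchor and B ephrins spanning the membrane. Netrins bind Dcc, Neo1 and Unc5 receptors, and Rgm proteins bind Neo1. In blood, Robo4 and Neo1 are known from HSCs, and several class 4 semaphorins from lymphocytes and dendritic cells.

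The values are log2 levels from 1-colour arrays, with differences given as HSC-enriched minus Lin+ means, and array medians ran from 5.22 to 5.33. A gene passed when limma's adjusted p was under 0.05 over all genes tested. As a guide to background, the 95th percentile of 1074 olfactory receptor genes was used, at 5.06. Of the gate's antigens, Kit was 3.20 higher and Cd48 3.69 lower in HSC-enriched cells, and all 11 measured HSC genes of a marker list rose. Eng, which encodes CD105, was 2.96 higher and Slamf1, which encodes CD150, was 1.79 higher. HSC-enriched arrays were unequal in transcripts of mature cells. The mean of 12 neutrophil genes was 6.80, 6.82, 9.26 and 8.96 on replicates 1 to 4, against 11.46 to 11.77 on Lin+ arrays. Of 12 B cell genes 11 were measured, and their mean was 6.46 on replicate 3 against 4.82 to 5.05 on the other HSC-enriched arrays.

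Across the 72 members, 16 rose and 6 fell in HSC-enriched cells and 50 did not pass. That is 30.6% in either direction, where 27.8% of all genes tested passed. By direction, 22.2% were higher and 8.33% lower, against 15.5% and 12.4% of all genes tested. Without HSC-enriched replicates 3 and 4, 14 rose and 6 fell, 13 and 6 of them the same genes; Ephb6, Plxna4 and Sema6c lost their calls (adjusted p = 0.054, 0.055 and 0.069) and Robo1 gained one. Against a null of a 1.2-fold difference, 8 rose and 6 fell, with Ephb6, Robo3, Efnb1, Efnb2, Unc5a, Plxna1, Plxna4 and Sema6c not passing (adjusted p = 0.073 to 0.529). With a filter at the median of all values, 26 members were tested, of which 10 rose and 5 fell. At least 2-fold differences were found for 5 higher and 3 lower members (4.8% and 6.08% of all genes tested). The median difference was 0.06 over the members and 0.02 over all genes. The populations did not overlap for 26 members, or 36.1%, against 28.9% of all genes tested. As counts, then, the members lay near the background, and the results are those of single genes and families. Of the 34 receptors 10 rose and 2 fell, and of the 37 ligands 5 rose and 4 fell; whether the roles differ was not tested. In bulk samples of sorted cells, a lower level through fewer cells of a type and through less RNA per cell cannot be told apart.

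**Figure D1:**
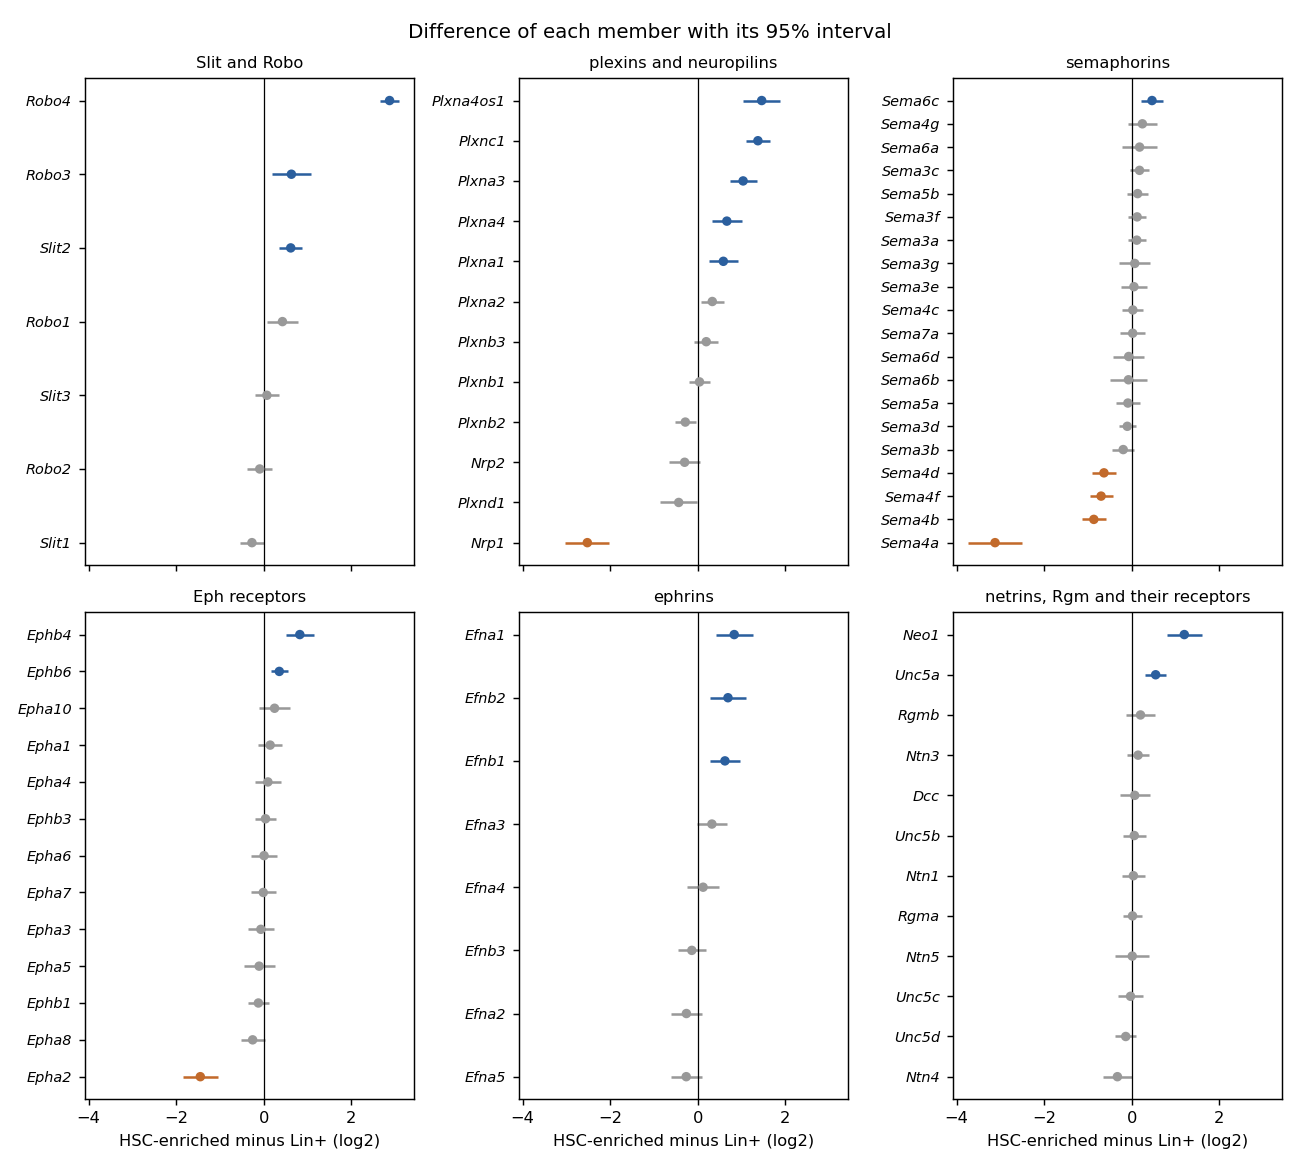
Each panel plots 1 family, each point a gene's difference between HSC-enriched and Lin+ means (log2, 4 arrays each) and each line its 95% interval from limma; blue genes rose, orange genes fell and grey genes did not pass. Robo4 (2.88), Sema4a (-3.12) and Nrp1 (-2.52) lie farthest from 0.

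Many members lay at the level of the olfactory receptor genes in both populations. The mean was above the guide for 29 members in Lin+ and 33 in HSC-enriched cells, 25 of them in both, and 35 were above it in neither. Among all genes, 12907 and 12897 were above it. Of the 16 members that rose, 9 had a Lin+ mean at or under the guide, and for Robo3, Slit2 and Sema6c the HSC-enriched mean was under it too. Of the 6 that fell, Nrp1 and Sema4f had an HSC-enriched mean under it. Folds of these genes rest on values near background.

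**Figure D2:**
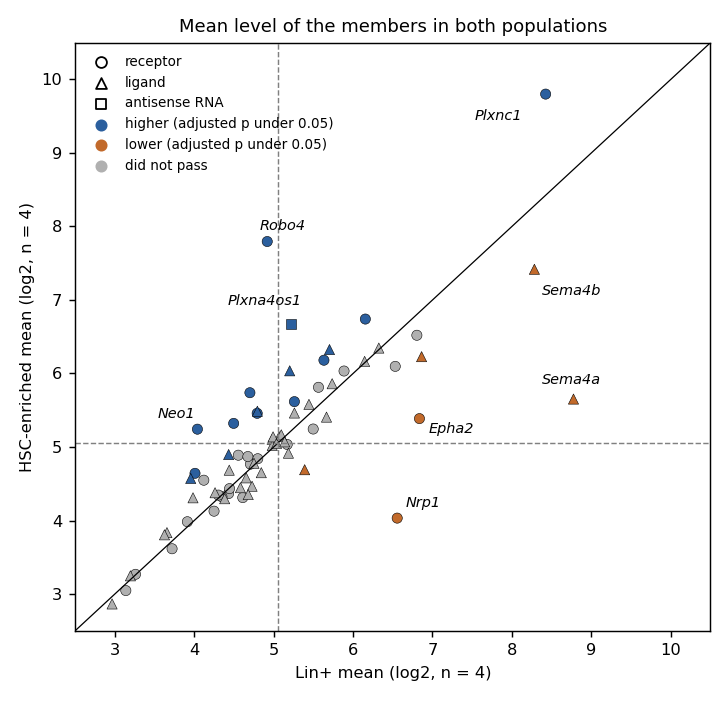
Each point is 1 member, with its Lin+ mean on the x axis and its HSC-enriched mean on the y axis (log2, n = 4 each); the solid line marks equal levels and the dashed lines the guide to background at 5.06. Robo4 and Neo1 are among the members above the guide in HSC-enriched cells alone, and Nrp1 is among those above it in Lin+ cells alone.

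Robo4, a Robo receptor known from endothelium, had the highest difference of all members. It was at 7.58, 7.90, 7.86 and 7.83 on the 4 HSC-enriched arrays and at 4.94, 4.93, 4.92 and 4.88 on the 4 Lin+ arrays. The populations did not overlap, the arrays of each lay close together, and the Lin+ values were all under the guide. The difference was 2.88 ± 0.10 (SE), a 7.34-fold rise (limma adjusted p = 8.2e-08). It ran from 2.82 to 2.95 over the 19 alternative settings. Plxnc1, the plexin that binds the membrane-anchored semaphorin Sema7a, was at 9.76, 9.94, 9.75 and 9.76 on HSC-enriched arrays. On Lin+ arrays it was at 8.14, 8.55, 8.46 and 8.55, so it was well above the guide in both populations and rose 2.60-fold (1.38 ± 0.12, adjusted p = 1.3e-05).

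The largest fall was that of Sema4a, a class 4 semaphorin with roles in immune cells. It was at 8.53, 8.85, 9.04 and 8.68 on Lin+ arrays and at 4.79, 5.50, 6.17 and 6.15 on HSC-enriched arrays. The populations did not overlap, but HSC-enriched replicates 3 and 4 were higher than replicates 1 and 2 by 1.02 in the mean. These are the arrays on which the 12 neutrophil genes were high too (9.26 and 8.96 against 6.80 and 6.82), as was the mean of 11 monocyte genes (5.80 and 5.52 against 5.11 and 5.07). On replicates 1 to 4, the mean of 10 erythroid genes was 4.97, 5.49, 5.91 and 5.42. That of 11 T and NK cell genes was 5.02, 5.00, 5.30 and 4.87. The part of such cells in the level of Sema4a was not tested. The Sema4a difference was -3.12 ± 0.28, an 8.71-fold fall (adjusted p = 1.6e-05), and -3.63 without HSC-enriched replicates 3 and 4. Nrp1, the co-receptor of class 3 semaphorins and of vascular endothelial growth factor, was at 6.19, 6.66, 6.73 and 6.65 on Lin+ arrays. On HSC-enriched arrays it was at 4.29, 3.58, 4.58 and 3.68, all under the guide, a 5.75-fold fall (-2.52 ± 0.23, adjusted p = 1.6e-05).

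The promoter windows of these 4 genes are shown because they are those of the 2 largest rises and the 2 largest falls among the receptors and ligands. Each window runs from 250 bases before to 50 bases after an annotated start, is given 5′ to 3′ on the gene's strand, and comes from RefSeq (GRCm38.p6). They are Robo4 at chr9:37401722-37402021 (+), Plxnc1 at chr10:94944796-94945095 (-), Sema4a at chr3:88461133-88461432 (-) and Nrp1 at chr8:128358823-128359122 (+). For Sema4a, the most upstream of 4 annotated starts is shown. Capitals mark matches, on either strand, to the GC box GGGCGG, the ETS core CCGGAA, the letters AGATAA of the Gata family or the letters TGTGGT of the Runx family. No match overlapped another in the 4 windows.
Robo4: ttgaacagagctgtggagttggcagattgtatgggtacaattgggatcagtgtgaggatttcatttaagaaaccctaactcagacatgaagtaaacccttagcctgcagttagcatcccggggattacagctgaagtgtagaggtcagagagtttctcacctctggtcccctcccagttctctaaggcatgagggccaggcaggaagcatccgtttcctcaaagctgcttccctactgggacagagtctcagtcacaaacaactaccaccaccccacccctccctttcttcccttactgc
Plxnc1: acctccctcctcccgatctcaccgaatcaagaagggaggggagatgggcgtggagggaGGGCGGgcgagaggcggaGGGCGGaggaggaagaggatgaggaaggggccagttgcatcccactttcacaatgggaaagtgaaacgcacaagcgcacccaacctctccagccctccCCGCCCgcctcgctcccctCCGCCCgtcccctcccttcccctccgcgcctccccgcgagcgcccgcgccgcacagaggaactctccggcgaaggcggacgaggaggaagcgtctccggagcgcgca
Sema4a: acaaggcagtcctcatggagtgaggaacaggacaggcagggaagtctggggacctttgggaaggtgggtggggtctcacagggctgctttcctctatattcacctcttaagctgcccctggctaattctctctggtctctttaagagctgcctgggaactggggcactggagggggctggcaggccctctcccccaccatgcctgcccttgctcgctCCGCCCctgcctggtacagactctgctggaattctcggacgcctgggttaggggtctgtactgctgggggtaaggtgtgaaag
Nrp1: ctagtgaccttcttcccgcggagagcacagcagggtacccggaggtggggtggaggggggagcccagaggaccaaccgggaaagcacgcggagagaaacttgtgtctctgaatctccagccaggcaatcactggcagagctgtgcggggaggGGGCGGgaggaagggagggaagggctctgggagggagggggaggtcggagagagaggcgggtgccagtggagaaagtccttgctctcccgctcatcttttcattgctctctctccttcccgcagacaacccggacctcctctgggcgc

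The window of Robo4 held none of the 4 motifs, that of Plxnc1 held 4 GC boxes, and those of Sema4a and Nrp1 held 1 each. The other 3 windows of Sema4a differed from the one shown: going downstream they held 0, 1 and 2 GC boxes, and the one with 1 also held an ETS core. Of 32851 windows of this length in the table, 35.7% held a GC box, 14.9% the ETS core, 11.2% the Gata and 16.8% the Runx letters. The share of G and C was 50.3% in the Robo4 window, 69.0% in that of Plxnc1, 59.7% in that of Sema4a and 64.0% in that of Nrp1, with a median of 52.7% over all windows. These matches are a description of the letters only. Of the 72 members, 60 had a window.

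**Figure D3:**
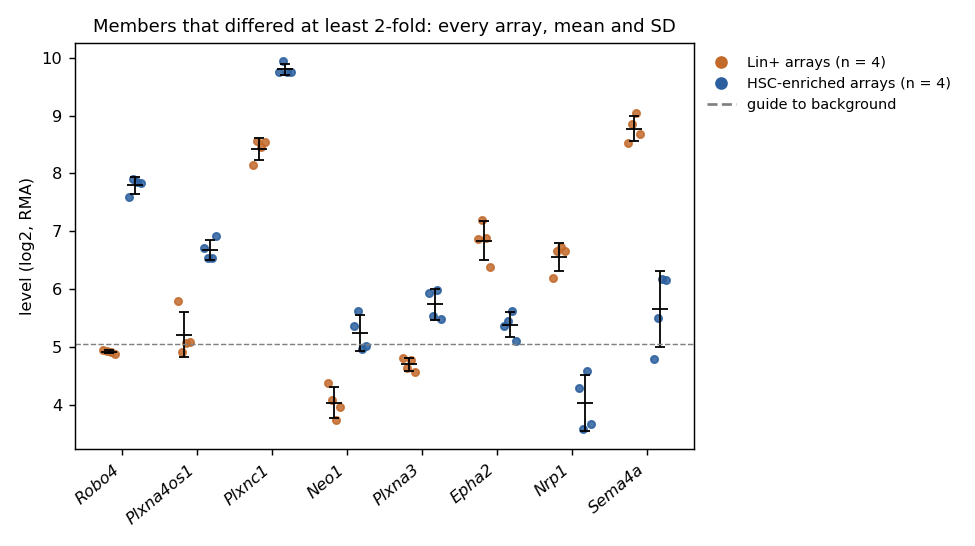
The 8 members that differed at least 2-fold, with the level on each array (log2) as a point, and the mean and SD of 4 arrays as a bar; the dashed line is the guide to background. The HSC-enriched arrays of Sema4a spread most, from 4.79 to 6.17, and those of Plxnc1 lie within 9.75 to 9.94.

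Among the other Slit and Robo genes, differences were small and levels low. Slit2, a ligand of Robo1 and Robo2, rose by 0.62 ± 0.12 (adjusted p = 0.0028), from 3.96 ± 0.17 to 4.57 ± 0.13 (SD, n = 4), both under the guide. Robo3, a receptor best known from commissural axons, rose by 0.63 ± 0.20 (adjusted p = 0.041). Its HSC-enriched arrays were at 4.41, 5.26, 4.51 and 4.38 and its Lin+ arrays at 4.28, 4.08, 3.72 and 3.96. Replicate 2 was the only array above the guide, and without it the difference was 0.43 (adjusted p = 0.063). The Robo3 call was also lost when Lin+ replicate 2, 3 or 4 or HSC-enriched replicate 3 was left out (adjusted p = 0.072, 0.114, 0.090 and 0.060). Robo1 (0.43, adjusted p = 0.071), Slit1 (-0.27) and Slit3 (0.07) did not pass. Robo1 passed without HSC-enriched replicate 4 (0.56, adjusted p = 0.012), on which it was at 4.15 against 4.53 to 4.76 on the other 3, and with array weights (0.49, adjusted p = 0.031). Robo4 was thus the member of this family with a mean above the guide in HSC-enriched cells and a difference that passed.

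Plexins, the main receptors of semaphorins, were higher in HSC-enriched cells where they passed the test. Of the 9 plexins 4 rose and 0 fell at the threshold; at an unadjusted p under 0.05, 5 were higher and 2 lower. Besides Plxnc1 these were members of the A class, which pair with neuropilins or bind class 6 semaphorins. Plxna3 was at 5.94, 5.54, 5.99 and 5.48 on HSC-enriched arrays and at 4.81, 4.65, 4.77 and 4.58 on Lin+ arrays. It rose 2.05-fold (1.04 ± 0.14, adjusted p = 0.00026), from a Lin+ level under the guide to one above it on every HSC-enriched array. Plxna4 rose by 0.67 ± 0.16 (adjusted p = 0.0085) and Plxna1 by 0.59 ± 0.15 (adjusted p = 0.014). Plxna1 was above the guide on all 8 arrays, at 6.36 to 6.98 against 6.01 to 6.32. The fourth gene of the class, Plxna2 (0.33, adjusted p = 0.058), did not pass although its populations did not overlap; it did with array weights (0.35, adjusted p = 0.046) and without HSC-enriched replicate 4 (0.39, adjusted p = 0.038).

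The antisense RNA Plxna4os1, which shares its locus name with Plxna4, was at 6.71, 6.54, 6.54 and 6.92 on HSC-enriched arrays. On Lin+ arrays it was at 5.79, 4.92, 5.07 and 5.08, with replicate 1 above the other 3 and still below every HSC-enriched array. It rose 2.76-fold (1.46 ± 0.19, adjusted p = 0.00019). Whether the probe sets of Plxna4 and Plxna4os1 tell the strands apart is not given in the sources used here, so their rises may not be separate. Plexins of the B and D classes, receptors of class 4 semaphorins and of Sema3e, did not pass: Plxnb2 was at -0.28 (adjusted p = 0.080), Plxnb3 at 0.20 and Plxnd1 at -0.43. Plxnb2 passed as lower without HSC-enriched replicate 1 (-0.35, adjusted p = 0.040) and with quantile normalization (-0.31, adjusted p = 0.036). With Nrp1 lower and Nrp2 (-0.30) not passing, 0 of the 2 neuropilins rose, and both were under the guide in HSC-enriched cells.

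Among semaphorins, the genes that fell were all of class 4, whose members are membrane-anchored; whether the classes differ was not tested. Of 6 class 4 genes 4 fell and 0 rose (0 at an unadjusted p under 0.05 too), with a median of -0.67. Sema4b was at 8.38, 8.10, 8.33 and 8.32 on Lin+ arrays and at 7.61, 7.20, 7.55 and 7.31 on HSC-enriched arrays, a 1.82-fold fall (-0.87 ± 0.12, adjusted p = 0.00039) at levels well above the guide. Sema4d, which encodes CD100 and binds Plxnb1 and the B cell receptor Cd72, fell by 0.63 (adjusted p = 0.0026), from 6.86 ± 0.18 to 6.23 ± 0.13. Sema4f fell by 0.70 (adjusted p = 0.0012), to a level under the guide on all 4 HSC-enriched arrays. On HSC-enriched replicates 1 to 4, Sema4d was at 6.18, 6.07, 6.38 and 6.28 and Sema4f at 4.57, 4.69, 4.76 and 4.75. Like Sema4a, both were higher on replicates 3 and 4 than on 1 and 2, though over narrower ranges, whereas Sema4b was not. Sema4c and Sema4g did not pass and were under the guide in both populations. Without HSC-enriched replicates 3 and 4, Sema4b, Sema4d and Sema4f fell by 0.88, 0.74 and 0.76.

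**Figure D4:**
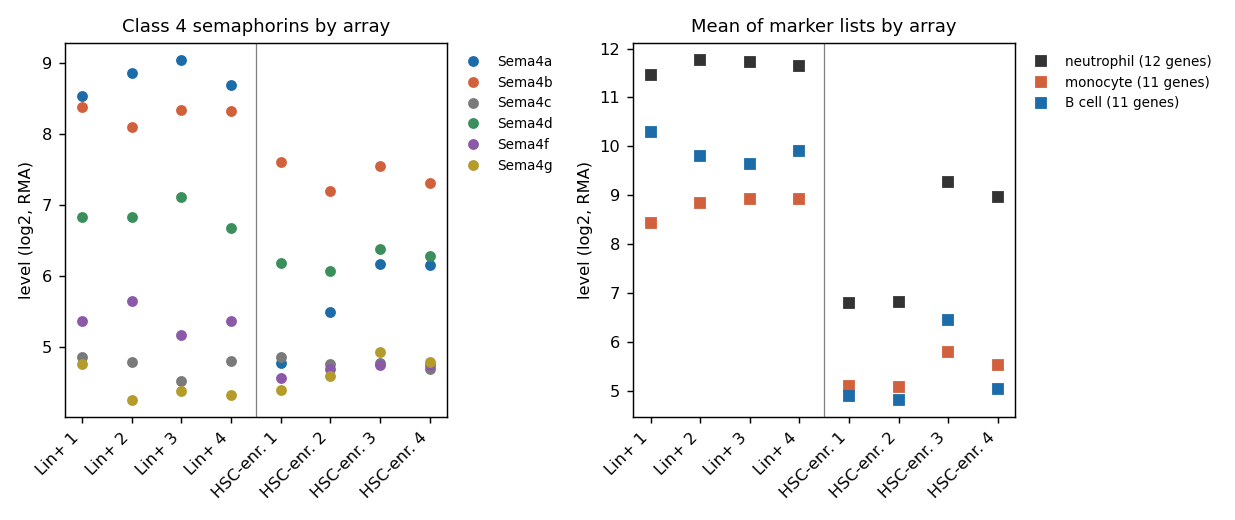
Left, the level of the 6 class 4 semaphorins on each array (log2); right, the mean level of the neutrophil, monocyte and B cell marker lists on the same arrays. Sema4a is at 6.17 and 6.15 on HSC-enriched replicates 3 and 4, where the neutrophil mean is 9.26 and 8.96, whereas Sema4b stays between 7.20 and 7.61.

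Of the secreted class 3 semaphorins, 0 of 7 passed in limma's test, and at an unadjusted p under 0.05 the number was also 0. Their differences lay between -0.19 (Sema3b) and 0.18 (Sema3c), and 5 of the 7 were under the guide in both populations. Sema3f, a ligand of Nrp2, was among the 2 above it, with a difference of 0.12 (adjusted p = 0.383). Of the 7 genes of classes 5 to 7, Sema6c rose by 0.46 (adjusted p = 0.0091), both of its means being under the guide. Sema7a, the ligand of Plxnc1, was at 6.35 ± 0.21 against 6.32 ± 0.15, and Sema5b at 0.14 did not pass either. The receptor of this ligand-receptor pair thus rose and the ligand did not pass, with a 95% interval of its difference from -0.27 to 0.31.

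Ephrins and Eph receptors gave mostly small differences. Among the 8 ephrins 3 rose and 0 fell (0 at an unadjusted p under 0.05). Efna1 rose 1.78-fold (0.83 ± 0.19, adjusted p = 0.0068), to 6.39, 5.94, 5.70 and 6.11 from 5.24, 5.31, 4.75 and 5.52, without overlap. Efnb2, known from arterial endothelium, was at 5.87, 5.58, 5.22 and 5.28 against 4.98, 4.90, 4.93 and 4.38. It rose by 0.69 ± 0.18 (adjusted p = 0.015), from under the guide to above it. Efnb1 rose by 0.62 ± 0.15 (adjusted p = 0.010), with HSC-enriched arrays at 5.91 to 6.65 and Lin+ arrays at 5.58 to 5.79. Efna2 (-0.26), Efna4 (0.12) and Efna5 (-0.26) did not pass, though Efna5 did without Lin+ replicate 2 (-0.42, adjusted p = 0.034).

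Of the 13 Eph receptors measured, 2 of the B class rose and Epha2 fell. Ephb4, the receptor of Efnb2 known from venous endothelium, was at 5.35, 5.45, 5.53 and 4.96 on HSC-enriched arrays and at 4.62, 4.60, 4.23 and 4.54 on Lin+ arrays. It rose 1.77-fold (0.83 ± 0.15, adjusted p = 0.0016), and its Lin+ mean was under the guide. Ephb6, which lacks kinase activity, rose by 0.36 ± 0.09 (adjusted p = 0.010) with nearly equal levels on the arrays of each population, 5.25 to 5.27 and 5.59 to 5.67. Epha2 was at 6.87, 7.20, 6.89 and 6.38 on Lin+ arrays and at 5.37, 5.45, 5.63 and 5.10 on HSC-enriched arrays, a 2.73-fold fall (-1.45 ± 0.18, adjusted p = 0.00014). The populations did not overlap, and every HSC-enriched array was above the guide, if closely. The other 8 Epha receptors did not pass. Of these Epha1 (0.15), Epha10 (0.25) and Epha8 (-0.25) had the highest means, and Epha8 passed without HSC-enriched replicate 4 (-0.35, adjusted p = 0.048). Efna1, a ligand of Epha2, thus rose where that receptor fell, whereas Ephb4 and Efnb2 both rose.

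**Figure D5:**
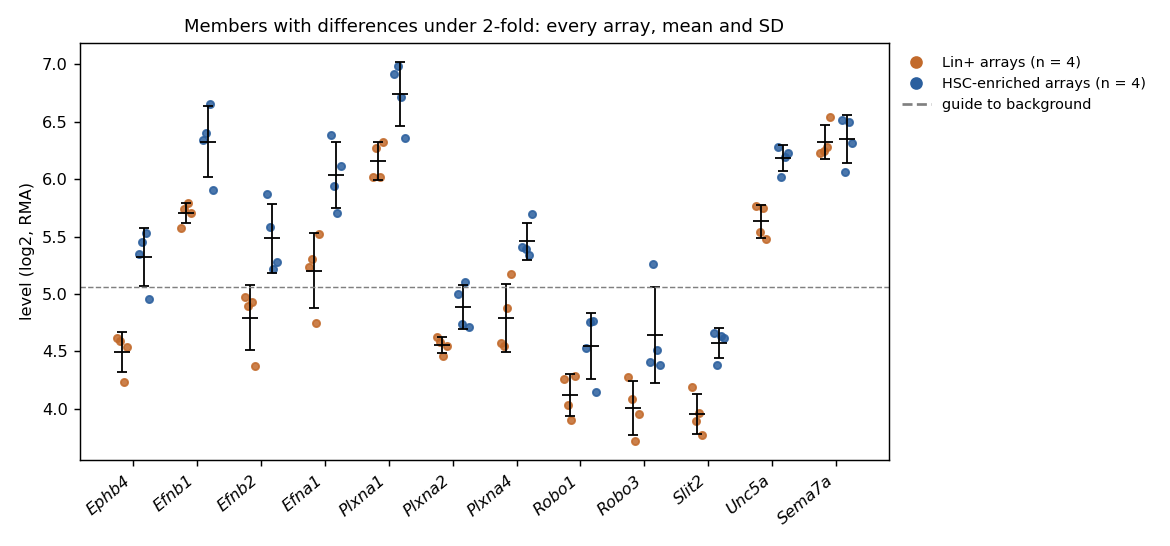
The 12 members plotted differed by less than 2-fold, and are shown with the level on each array (log2) as a point, and the mean and SD of 4 arrays as a bar; the dashed line is the guide to background at 5.06. Ephb4, Efnb2 and Plxna4 lie above the guide in the HSC-enriched mean alone, and Sema7a overlaps between the populations.

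Neo1, or neogenin, was the gene with the highest difference among netrin and Rgm receptors. It was at 5.36, 5.61, 4.97 and 5.02 on HSC-enriched arrays and at 4.37, 4.08, 3.73 and 3.97 on Lin+ arrays. It rose 2.30-fold (1.202 ± 0.177, adjusted p = 0.00049), with replicates 3 and 4 just under the guide and 0.49 below replicates 1 and 2 in the mean. Without replicates 3 and 4 the rise was 1.45 (adjusted p = 0.00069). Of its ligands, Rgma (0.02), Rgmb (0.20) and the 4 netrins did not pass, the netrins lying between -0.33 and 0.15. Among Unc5 receptors, Unc5a rose by 0.55 ± 0.11 (adjusted p = 0.0037), at 6.02 to 6.28 against 5.48 to 5.76. Unc5d (-0.14) and the other 2 Unc5 genes did not pass, and neither did Dcc, at 3.91 and 3.98.

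The 50 members that did not pass had differences from -0.43 to 0.43, and 32 of them were under the guide in both populations. All of their 95% intervals lay within -0.86 to 0.78, so that a 2-fold difference lay outside each interval. The intervals bound the difference in array signal. Plxna2, Plxnb2, Sema3c and Sema3f did not pass although their populations did not overlap.

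Since several of these genes are also active in vessel walls, nerves or stroma, markers of such cells were read on the same arrays. Of 12 endothelial genes 3 rose (Emcn, Tie1 and Tek) and Pecam1 fell by 0.35, with array means of 5.10 to 5.29 in Lin+ and 5.90 to 6.40 in HSC-enriched cells. Emcn, Tie1 and Tek are also known from HSCs. Cdh5, which encodes the endothelial cadherin, was at 5.89 ± 0.74 against 6.25 ± 0.27 and did not pass, nor did Kdr (0.30), and Cldn5 and Sox17 were under the guide in HSC-enriched cells. HSC-enriched arrays were unequal in some of these genes. On replicates 1 to 4, Cdh5 was at 6.34, 5.05, 6.67 and 5.52 and Stab2 at 5.78, 4.51, 5.70 and 4.96. Kdr too was higher on replicates 1 and 3 than on 2 and 4, whereas Emcn was at 8.86, 8.77, 8.60 and 8.40. Among members, Nrp1 and Sema6c followed the order of Cdh5. Plxna3 did not, but it was higher on replicates 1 and 3 than on 2 and 4. Plxna2, Sema4b, Sema7a and Efna5, among others, shared that split, and Robo4, Ephb4 and Efnb2 showed neither pattern. The part of endothelial cells in the levels of these members, the rises of Robo4, Ephb4 and Efnb2 included, was not tested. The 12 stromal genes averaged 4.10 to 4.21 in HSC-enriched and 4.16 to 4.26 in Lin+ arrays, and 9 of them, Lepr and Pdgfrb included, were under the guide in HSC-enriched cells. Of the stromal genes 1 rose, which was Pdgfrb (0.40, limma adjusted p = 0.038), and 2 fell, Cxcl12 (-0.53) and Adipoq (-0.48). Of 10 measured Schwann cell and neuronal genes 0 passed in limma's test, 0 at an unadjusted p under 0.05, with means of 4.90 to 4.99 and 4.87 to 5.08.

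Of lists of mature cells, 11 of 12 neutrophil, 11 of 11 monocyte, 11 of 11 B cell, 11 of 11 T and NK cell and 10 of 10 erythroid genes fell. Sema4a, Sema4b, Sema4d, Sema4f, Nrp1 and Epha2 fell beside them, and the part of each cell type in their levels was not tested. HSC-enriched arrays averaged 5.07 to 5.80 for monocyte, 4.87 to 5.30 for T and NK cell and 4.97 to 5.91 for erythroid genes. Of 11 measured megakaryocyte genes 6 rose and 1 fell, with means of 6.69 or more on HSC-enriched arrays against 5.99 to 6.41 on Lin+ arrays.

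Genes that act next to these cues and receptors, at the cell surface or inside the cell, were given by a list of 121 entries, of which 114 were measured. Of these 24 rose and 24 fell, or 7 and 11 by at least 2-fold, with a median of -0.01. These are larger shares than over all genes tested, where 15.5% rose and 12.4% fell, or 4.8% and 6.08% by at least 2-fold. Of the 114, 81 were above the guide in Lin+ and 85 in HSC-enriched cells. Among all 24011 genes tested, 12907 and 12897 were above it. Whether the list differs from other genes was not tested. Among 19 Slit-Robo partners 4 rose and 6 fell (median -0.10). Srgap3, a GTPase activator that binds Robo, rose by 0.85, Abl2 by 0.59 and Sos1 by 0.58. Cxcr4, the chemokine receptor that Slit signalling can dampen, fell by 1.86, the actin regulators Evl and Cap1 fell by 1.38 and 1.28, and Usp33 (-0.10) and Myo9b (-0.18) did not pass. Among 30 semaphorin partners 5 rose and 8 fell (median -0.09). Arhgef12, a partner of B class plexins, rose by 0.85, Rnd2, under the guide in both populations, by 0.74 and Itgb1, part of the integrin receptor of Sema7a, by 0.63. Cd72, a B cell receptor of Sema4d, fell by 1.79, Mical1, which oxidises actin downstream of plexins, by 1.66 and the kinase gene Fes by 1.48. Gsk3b (0.03) and Rap1b (-0.09) did not pass.

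Among 23 Eph-ephrin partners 5 rose and 3 fell (median 0.03). The adaptor gene Grb10 rose by 3.61, the kinase gene Yes1 by 1.57 and the exchange factor gene Itsn1 by 1.33, whereas Sla, Vav2 and Grb7 fell by 1.39, 0.75 and 0.58. Adam10, a protease that cleaves ephrins (-0.18), and Pdzd11 (0.31) did not pass. Among 22 netrin and Rgm partners 6 rose and 3 fell (median 0.23). Maged1, which binds Unc5 receptors, rose by 3.02, Dapk1, a kinase gene of the Unc5b death pathway, by 2.02 and Flrt3, which encodes an Unc5 ligand, by 1.75. Ablim1, Tiam2 and Pitpna fell by 0.87, 0.73 and 0.40, and Siah2 (0.26) and Lrig2 (-0.12) did not pass. Of 20 shared GTPases, kinases and actin regulators 4 rose and 4 fell (median -0.19), with Cfl2 (0.95), Wasl (0.64) and Map1b (0.64) higher and Ssh2 (-1.42), Rac2 (-1.14), the blood cell Rac gene, and Pak2 (-0.39) lower. Rac1 (0.20) and Cdc42 (-0.20) did not pass. Of the partner genes named, Grb10, Yes1, Dapk1, Flrt3 and Map1b had a Lin+ mean under the guide and Tiam2 an HSC-enriched mean under it, so that their folds rest on values near background.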

How the data were processed

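Total RNA was amplified with the Ovation Pico system and hybridised to MouseGene arrays (versions 1.0st and 2.0st are named, without saying which sample went on which), per the labels' protocols. The deposited values are log2 levels of 24973 probe sets, made by the authors with RMA and Partek, per the submitters' processing notes, which give no versions. The log2 scale was read from the values, 1.66 to 13.1. Genome build and probe set definition: not given in the sources used here. Through the platform annotation 24015 probe sets had 1 symbol, 0 had several and 958 had none. Symbols were checked by Entrez gene ID against RefSeq (GRCm38.p6) for 23922. The brightest probe set of a symbol was kept, which left out 4.

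The 2 groups were compared with limma 3.58.1 (lmFit, eBayes; R 4.3.3) without covariates or a filter on low values, adjusted by Benjamini-Hochberg over 24011 genes. Standard errors and 95% intervals are limma's, and the number of arrays, 4 in each group, limits precision. The fit was tested on simulated data. Values of every array were given for members that passed, differed at least 2-fold and had a group mean above the guide. Other passing members were named, with up to 3 not passing per family and, per partner list, up to 3 rises, 3 falls and 2 not passing. Plxna2, Nrp2, Dcc, Sema3b and Sema3c were named outside this rule, after their values were seen. Sema4c and Sema4g were named as not passing and under the guide, and were left out of the 85 genes examined for outlying arrays. Members and lists were chosen with earlier results of these data known. Probe levels of different genes were not compared as amounts. Alternatives were scaling, filters, probe set means, variance estimates, array weights, a replicate block, a 1.2-fold null and arrays left out. Plots were made in Python 3.11.15 with matplotlib 3.10.9.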

Additional observations from a re-analysis of the deposited data

Results flagged for a closer look

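Of 170 sets of 4 arrays (85 named members and partner genes in 2 populations), 11 held 1 array far from the other 3 for its spread, where chance gives about 1 in 20. Among members these were Robo3 on HSC-enriched replicate 2 (5.26 against 4.38 to 4.51), Slit2 on HSC-enriched replicate 2 (4.38 against 4.62 to 4.66), Plxnc1 on HSC-enriched replicate 2 (9.94 against 9.75 to 9.76) and Plxnd1 on HSC-enriched replicate 4 (5.51 against 6.25 to 6.33). On Lin+ arrays they were Efna5 on replicate 2 (4.26 against 4.86 to 4.93), Efnb2 on replicate 4 (4.38 against 4.90 to 4.98) and Nrp1 on replicate 1 (6.19 against 6.65 to 6.73). Among partner genes they were Map1b (4.98 against 4.69 to 4.70) and Cfl2 (6.99 against 7.62 to 7.73) on Lin+ replicate 1, Ssh2 on Lin+ replicate 4 (8.76 against 8.89) and Rac2 on Lin+ replicate 3 (12.15 against 11.90 to 11.93).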

How the results depend on the processing

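The count of 16 members higher was 10 with the filter at the median, which tested 26 members, and 8 against a 1.2-fold null. That of 6 lower stayed at 5 to 7 in all alternatives. With each array left out in turn, 15 to 18 members were higher and 6 to 7 lower, and 21 of the 22 members kept their call, the exception being Robo3. Other than against the 1.2-fold null, 18 of 22 kept it wherever they were tested. Ephb6, Plxna4 and Sema6c lost it without HSC-enriched replicates 3 and 4 (adjusted p = 0.054, 0.055 and 0.069), and Robo3 also with arrays centred on their medians (0.053). Against the 1.2-fold null, 2141 of all genes were higher, and 14 partner genes rose and 14 fell. With the guide at the 90th percentile, 50 members in Lin+ and 51 in HSC-enriched cells were above it, and at the 99th 8 and 6. Of members that did not pass, Rgma turned to -0.0145 with quantile normalization and -0.0230 without HSC-enriched replicates 3 and 4, Sema7a to -0.0048 and -0.0357, and Dcc to -0.0302 without those 2 arrays. With single arrays left out, Rgma ran from -0.0139 to 0.0471, Sema7a from -0.0331 to 0.1156, Slit3 from -0.0278 to 0.1234 and Dcc from -0.0562 to 0.1490. The causes were not tested. With the replicate number as a block, 16 members rose and 6 fell, and no member's call changed. Whether same-numbered arrays belong together is not given in the sources used here. Their deviations from the group means correlated at -0.15 to 0.06 across genes, and those of other pairs at -0.11 to 0.17. With 4 same-numbered pairs, these values cannot decide whether such arrays share mice or a sort.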
